A study of Mus musculus with 9 samples.

Results

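A set of 30 genes of lysosomal glycosidases, sulfatases, lipid hydrolases and the proteins that help them was measured by RNA sequencing in mouse white gastrocnemius, a calf muscle of mostly fast-twitch fibres. The genes were taken by symbol from the deposited table: all 30 of the 30 listed symbols were among its 18063 genes, and 29 reached a mean of 0.5 RPKM (reads scaled by transcript length and library size) over the libraries and could be tested. Not all of them are hydrolases in the strict sense. Psap and Gm2a encode activator proteins without a catalytic site of their own, Hgsnat encodes a membrane acetyltransferase, Tpp1 a peptidase and Acp2 and Acp5 phosphatases, and the product of Hyal2 is best known at the cell surface.

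The 9 libraries came from 5 Gaa knock-out mice at 5 months, 2 wild-type mice at 5 months and 2 wild-type mice at 6 months, all described as of mixed background. In the knock-out, exon 6 of Gaa was disrupted by targeting that also placed loxP sites in introns 5 and 6, and the BL6/129j colony has been bred brother to sister for more than 20 generations. The sources used here do not say whether the wild-type mice were littermates. Columns for the wild type are named wt1 to wt4 without an age, so the 2 ages were taken as 1 group. Samples are numbered in the labels but animals are not named, so the p-values rest on the spread among libraries, which may be partly technical. Gaa itself was at 3.44 ± 0.204 RPKM (SD, n = 5) in the knock-out and at 49.4 ± 4.48 (SD, n = 4) in the wild type. By the step that 1 read makes in the low values, each RPKM unit on a 1-kilobase transcript corresponded to about 17.6 to 37.2 reads per knock-out library, and to 36.8 to 63.9 per wild-type library. The tissue label fits its markers, since the summed RPKM of 8 skeletal muscle markers, led by Tnnt3, Ckm and Acta1, was at least 83580.5 in every library.

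Lysosomal hydrolases work as disassembly lines at acid pH: each enzyme removes 1 kind of sugar, sulfate, acyl chain or phosphate, and the next cannot act until the last has finished. They are made in the endoplasmic reticulum, most are tagged with mannose 6-phosphate in the Golgi and carried to lysosomes by receptors, and sulfatases must also have an active-site cysteine converted by the enzyme Sumf1. The loss of single enzymes causes storage diseases such as Tay-Sachs (HEXA), Fabry (GLA), Sanfilippo (SGSH, NAGLU, HGSNAT) and Morquio (GALNS) disease. Gaa, the enzyme missing here, is the lysosomal glycogen hydrolase, and its loss is Pompe disease, in which muscle lysosomes fill with glycogen. Many lysosomal genes are known targets of the transcription factor TFEB.

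Of the 29 tested members, 18 were higher in the knock-out and none was lower (limma on log2(RPKM + 0.1), Benjamini-Hochberg adjusted p below 0.05 over 11032 genes). Over all genes tested, 37% were called higher and 14.8% lower, 51.8% in all. The log2 fold change was positive in 25 of the 29, against 64.4% of all genes, and 11 members were not called. The median log2 fold change of the members was 0.36, against 0.12 for all genes. In 15 members the 5 knock-out values lay above all 4 wild-type values, and in none below, where the shares over all genes were 30.9% and 11.4%. Most differences were of modest size: 2 members, Hexa and Galns, differed by at least 2-fold. Galns passed the level filter through its knock-out values alone, so its place among the 18 was partly fixed by the filter. Log2 fold changes on this scale understate the change of low genes.

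The split between higher and lower depended on scaling, for the members as for all genes. With each library centred on its median, 15 members were called higher and 3 lower, Naglu, Smpd1 and Acp5, against 25.1% and 25% of all genes. With a trend in transcript length removed from each library the counts were again 15 and 3, against 26.2% and 22.5%. All 15 were among the 18, and the members whose call ended in both were Acp2, Hyal2 and Sgsh.

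**Figure D1:**
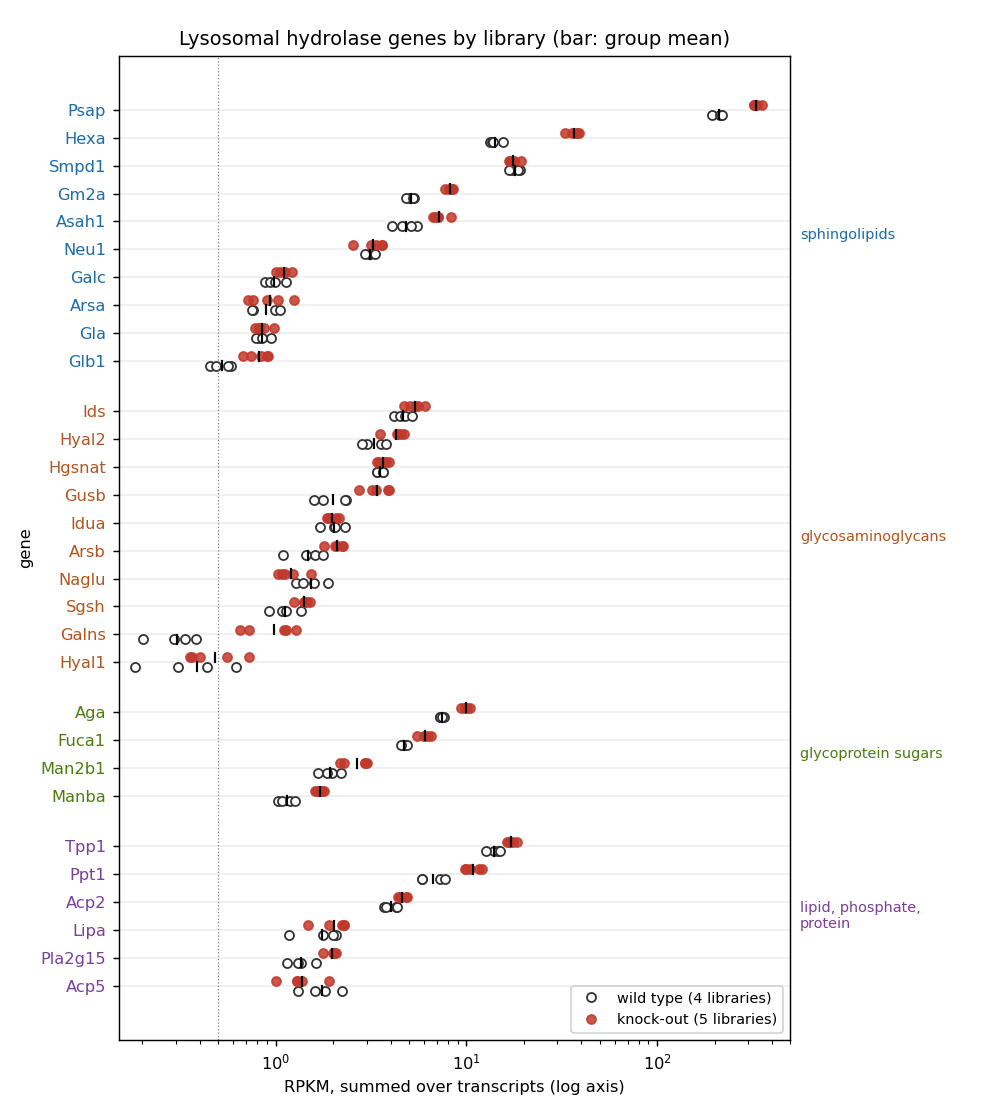
RPKM of the 30 genes in each library on a log axis, grouped by role, with 5 knock-out libraries as filled points above 4 wild-type libraries as open points; short bars are group means and the dotted line is the level filter of 0.5 RPKM. The levels run from Psap, at 195 to 356 RPKM, to Hyal1 and Galns below 1.5 RPKM, and the genotypes part clearly for Hexa, Gm2a and Psap but overlap for Smpd1, Gla and Idua.

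Enzymes and activators of sphingolipid and ganglioside breakdown split into members that rose and members that were not called. Hexa, Gm2a, Psap, Asah1 and Glb1 rose, 5 of 10, and none fell, where 37% and 14.8% of all genes did. With the libraries centred, 5 were higher and 1 lower, against 25.1% and 25% of all genes. Hexa encodes the alpha subunit of beta-hexosaminidase, which removes the terminal N-acetylgalactosamine of ganglioside GM2. It was at 35.8, 38.0, 38.8, 33.0 and 37.7 RPKM in ko1 to ko5 and at 15.5, 13.3, 13.7 and 13.8 RPKM in wt1 to wt4. The lowest knock-out library stood well above the highest wild-type one (log2 fold change 1.38, SE 0.06, limma adjusted p = 1.9e-08).

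Gm2a encodes the activator that lifts GM2 out of the membrane for Hexa to cut. Its level was 8.27, 8.40, 8.53, 8.13 and 7.76 RPKM in ko1 to ko5 and 5.02, 4.83, 5.30 and 5.25 RPKM in wt1 to wt4, so the genotypes did not overlap (log2 fold change 0.68, SE 0.06, limma adjusted p = 2.0e-06). Psap encodes prosaposin, the precursor of saposins A to D, and was the most abundant member. It stood at 321, 356, 321, 327 and 333 RPKM in ko1 to ko5 and at 217, 195, 214 and 219 RPKM in wt1 to wt4 (log2 fold change 0.65, SE 0.05, limma adjusted p = 2.2e-06). Again no value was shared between the genotypes. Psap alone made up 64.0% to 68.3% of the summed RPKM of the 30 genes in each library. Its sum covers 6 RefSeq transcripts, and their mean levels were 1.49-fold to 1.69-fold higher in the knock-out. The most abundant transcript, NM_001146124, held 31.6% to 36.8% of the Psap level across knock-out libraries and 31.4% to 34.5% across wild-type ones, ranges that overlap.

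Asah1, the acid ceramidase, was at 6.67 to 8.28 RPKM across knock-out libraries and 4.10 to 5.54 across wild-type ones (log2 fold change 0.57, SE 0.09). Glb1, the beta-galactosidase that starts the breakdown of GM1, was low: 0.672, 0.902, 0.742, 0.909 and 0.838 RPKM in ko1 to ko5 and 0.452, 0.585, 0.560 and 0.486 in wt1 to wt4. Its groups did not overlap either (log2 fold change 0.55, SE 0.13, limma adjusted p = 0.0043), although the values rest on an estimated 31 to 86 reads.

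The other 5 members of this role were not called. Gla, the alpha-galactosidase lost in Fabry disease, was at 0.814, 0.814, 0.985, 0.865 and 0.783 RPKM in ko1 to ko5 and at 0.814, 0.940, 0.785 and 0.844 in wt1 to wt4. The groups lay on top of each other (log2 fold change 0.01, 95% interval -0.23 to 0.25, limma adjusted p = 0.95). Smpd1, the acid sphingomyelinase, was among the most abundant members, at 16.7 to 19.3 RPKM across knock-out libraries and 16.7 to 19.2 across wild-type ones. Its interval was narrow (log2 fold change -0.02, 95% interval -0.16 to 0.11), and with the libraries centred it was called lower (-0.15, limma adjusted p = 0.038). Neu1, the sialidase, was at 2.55 to 3.62 RPKM against 2.95 to 3.32 (log2 fold change 0.05, 95% interval -0.17 to 0.27). Arsa, the sulfatase of sulfatide, was at 0.715 to 1.25 RPKM against 0.756 to 1.06 (log2 fold change 0.05, -0.32 to 0.41). Galc, the galactocerebrosidase, was at 1.00 to 1.21 RPKM against 0.876 to 1.13 (log2 fold change 0.15, -0.07 to 0.38). The groups of all 3 overlapped. Gla, Arsa and Galc rest on an estimated 47 to 242 reads per library.

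Glycosaminoglycan breakdown takes long sulfated sugar chains apart, and its 10 genes also divided. Galns, Gusb, Arsb, Hyal2 and Sgsh were higher, 5 of the 9 tested, and none was lower, against 37% and 14.8% of all genes. With the libraries centred, 3 were higher and 1 lower, against 25.1% and 25% of all genes, which is near the background. Galns, which removes the 6-sulfate of keratan and chondroitin sulfate, was at 0.722, 1.27, 1.13, 1.10 and 0.653 RPKM in ko1 to ko5 and at 0.336, 0.203, 0.382 and 0.292 in wt1 to wt4. The lowest knock-out value was above the highest wild-type value (log2 fold change 1.40, SE 0.21, limma adjusted p = 2.0e-04). The wild-type level rests on an estimated 18 to 55 reads per library, and the division between its 2 transcripts varied widely, with NM_016722 at 18.8% to 85.6% of the Galns level in the knock-out.

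Gusb, the beta-glucuronidase, was at 2.75, 3.91, 3.19, 3.87 and 3.34 RPKM in ko1 to ko5 and at 1.78, 1.59, 2.33 and 2.31 in wt1 to wt4. All knock-out values were above all wild-type values, although wt3 and wt4 came close to ko1 (log2 fold change 0.75, SE 0.13, limma adjusted p = 7.2e-04). Arsb, which removes the 4-sulfate of dermatan and chondroitin sulfate, was at 1.80, 2.05, 2.10, 2.22 and 2.26 RPKM against 1.61, 1.09, 1.43 and 1.76 (log2 fold change 0.49, SE 0.13, limma adjusted p = 0.0072). The gap between wt4 and ko1 was small. Hyal2, a hyaluronidase, was at 3.50 to 4.70 RPKM across knock-out libraries and 2.82 to 3.77 across wild-type ones, and the groups overlapped in ko3, wt1 and wt3 (limma adjusted p = 0.012, and 0.064 with the libraries centred).

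Heparan sulfate passes through a chain of enzymes, and of the 5 described next 1, Sgsh, was called, where 51.8% of all genes were. Idua, the iduronidase, was at 1.89, 1.93, 1.85, 2.14 and 2.06 RPKM in ko1 to ko5 and at 1.70, 2.03, 2.31 and 2.04 in wt1 to wt4, with full overlap (log2 fold change -0.03, 95% interval -0.23 to 0.18, limma adjusted p = 0.84). Ids, the iduronate sulfatase, was at 4.73 to 6.04 RPKM against 4.16 to 5.17 (log2 fold change 0.21, 95% interval 0.02 to 0.39, limma adjusted p = 0.062). Hgsnat, which acetylates the chain's glucosamine, was at 3.41 to 3.91 RPKM against 3.38 to 3.64 (log2 fold change 0.06, 95% interval -0.09 to 0.20). Sgsh, the sulfamidase, was at 1.24 to 1.52 RPKM across knock-out libraries and 0.918 to 1.35 across wild-type ones, with wt4 inside the knock-out range (log2 fold change 0.31, SE 0.11, limma adjusted p = 0.037). Its call ended with the libraries centred (limma adjusted p = 0.16).

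Naglu, the N-acetylglucosaminidase that follows Hgsnat in the chain, pointed the other way. It was at 1.23, 1.53, 1.02, 1.11 and 1.08 RPKM in ko1 to ko5 and at 1.28, 1.59, 1.87 and 1.40 in wt1 to wt4. Of the knock-out libraries, ko2 alone reached into the wild-type range. Its difference did not pass the test (log2 fold change -0.33, SE 0.14, limma adjusted p = 0.062), but with the libraries centred it was -0.46 (limma adjusted p = 0.011). Hyal1, the lysosomal hyaluronidase, did not reach the level filter. It was at 0.354, 0.727, 0.363, 0.402 and 0.553 RPKM in ko1 to ko5 and at 0.308, 0.182, 0.619 and 0.434 in wt1 to wt4, which overlap, and these stand for an estimated 19 to 119 reads.

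The 4 members grouped here under glycoprotein sugar breakdown all rose, against 37% of all genes. Other enzymes known to act on glycoprotein sugars were divided. Hexa (log2 fold change 1.38) and Glb1 (0.55), grouped above under sphingolipids, were called higher. Not called were Man2b2 (-0.12), Ctbs (-0.03) and Fuca2 (-0.0042) in the list of other hydrolases, and Neu1 (0.05) among the members. Aga, which cuts the bond between asparagine and the sugar chain, was at 9.40, 9.85, 10.4, 10.0 and 9.83 RPKM in ko1 to ko5 and at 7.25, 7.31, 7.68 and 7.47 in wt1 to wt4. Both groups were tight and well apart (log2 fold change 0.41, SE 0.05, limma adjusted p = 5.1e-05). Manba, the beta-mannosidase, was at 1.70, 1.75, 1.79, 1.64 and 1.60 RPKM against 1.03, 1.08, 1.19 and 1.27 (log2 fold change 0.54, SE 0.09, limma adjusted p = 3.8e-04). Fuca1, the fucosidase, was at 6.10, 6.01, 5.52, 6.32 and 6.49 RPKM against 4.77, 4.66, 4.88 and 4.52 (log2 fold change 0.36, SE 0.06, limma adjusted p = 5.1e-04). Neither gene had a knock-out library inside the wild-type range. Man2b1, the alpha-mannosidase, was at 2.28, 2.96, 2.18, 2.92 and 3.01 RPKM against 1.97, 1.66, 2.19 and 1.86, with wt3 just above ko3 (log2 fold change 0.45, SE 0.12, limma adjusted p = 0.0082). The 4 genes were also called higher with the libraries centred, at log2 fold changes of 0.24 to 0.41, where 25.1% of all genes were.

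Of the 6 genes that act on acyl chains, phosphate esters and peptides, 4 rose and none fell, against 37% and 14.8% of all genes. With the libraries centred, 3 rose and 1 fell, against 25.1% and 25% of all genes. Ppt1, the thioesterase that removes palmitate from proteins, was at 9.92, 10.5, 11.7, 9.82 and 12.1 RPKM in ko1 to ko5 and at 5.85, 5.86, 7.24 and 7.72 in wt1 to wt4, with no overlap (log2 fold change 0.69, SE 0.10, limma adjusted p = 1.3e-04). Pla2g15, the lysosomal phospholipase, was at 1.78, 2.02, 2.06, 1.99 and 2.03 RPKM against 1.36, 1.14, 1.62 and 1.30 (log2 fold change 0.52, SE 0.10, limma adjusted p = 0.0013). Tpp1, the tripeptidyl peptidase, was at 16.7, 17.5, 18.3, 16.3 and 17.0 RPKM against 13.9, 12.6, 14.6 and 14.9 (log2 fold change 0.29, SE 0.06, limma adjusted p = 0.0019). These groups were apart, the last by a small step.

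Acp2, the lysosomal acid phosphatase, differed least among the called members, at 4.36 to 4.87 RPKM across knock-out libraries and 3.71 to 4.31 across wild-type ones (log2 fold change 0.19, SE 0.07, limma adjusted p = 0.037, and 0.42 with the libraries centred). Lipa, the acid lipase of cholesteryl esters and triglycerides, was at 1.47, 2.22, 1.90, 2.28 and 2.28 RPKM in ko1 to ko5 and at 1.77, 1.17, 2.08 and 1.997 in wt1 to wt4, with wide overlap (log2 fold change 0.21, 95% interval -0.16 to 0.59). Acp5, the tartrate-resistant phosphatase known from osteoclasts and macrophages, was at 1.29, 1.30, 0.999, 1.90 and 1.37 RPKM in ko1 to ko5 and at 1.61, 1.30, 2.23 and 1.81 in wt1 to wt4. The groups overlapped, with the lowest value in ko3 and the highest in wt3 (log2 fold change -0.32, limma adjusted p = 0.15), and with the libraries centred Acp5 was called lower (-0.45, limma adjusted p = 0.042).

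**Figure D2:**
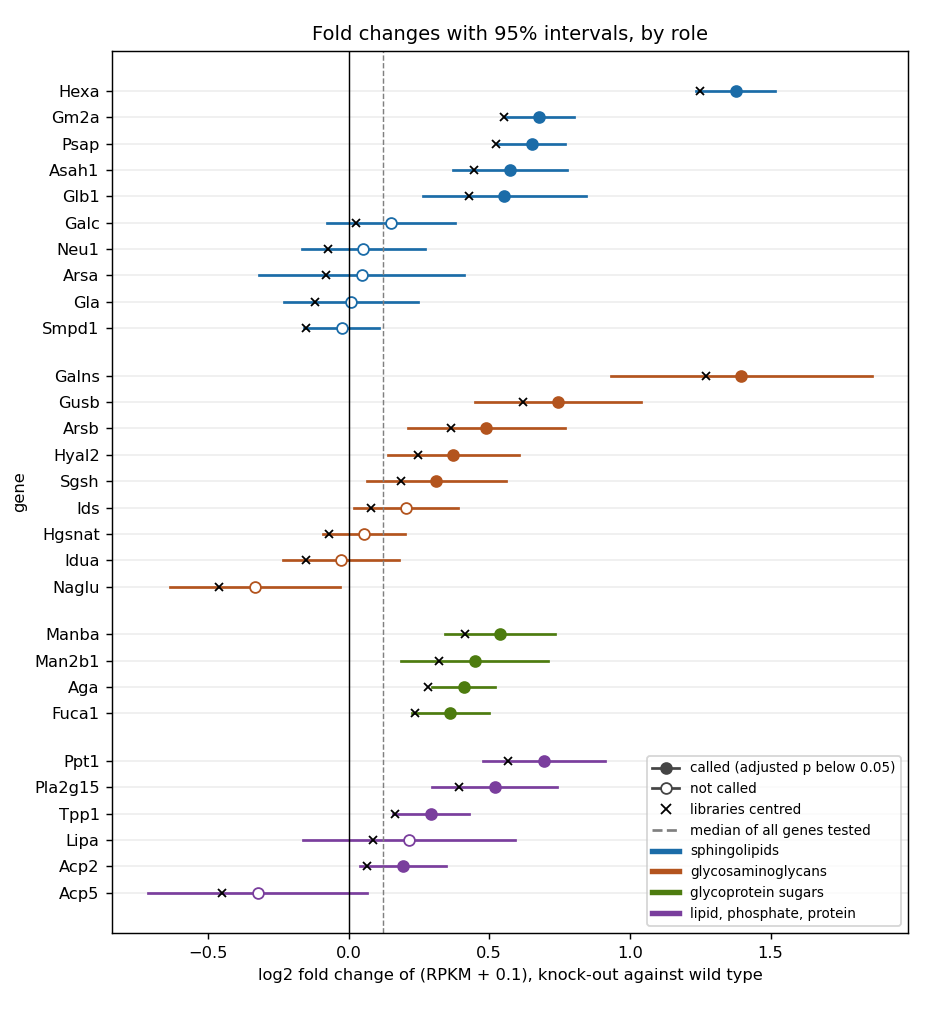
Log2 fold changes of the 29 tested members on the log2(RPKM + 0.1) scale with 95% intervals, grouped by role; filled points were called, open points were not, crosses give the value with the libraries centred, and the dashed line is the median of all genes tested at 0.12. Hexa (1.38) and Galns (1.40) stand apart from the other called members, which lie between 0.19 (Acp2) and 0.75 (Gusb).

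Sulfatases can be read across these roles. Of the 5 among the members, Galns, Arsb and Sgsh were called higher, while Ids (0.21) and Arsa (0.05) were not called. With the libraries centred, Galns and Arsb were called higher. The share of all genes called higher was 37%, or 25.1% with the libraries centred. Sumf1, which makes the formylglycine that all sulfatases need, rose from 3.06 ± 0.212 RPKM (SD, n = 4) to 4.18 ± 0.229 (SD, n = 5) with no overlap (log2 fold change 0.44, SE 0.07, limma adjusted p = 3.2e-04). Its paralogue Sumf2, which lacks that activity, fell from 6.12 ± 0.175 to 4.33 ± 0.439 RPKM (log2 fold change -0.49, SE 0.08, limma adjusted p = 2.3e-04).

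Of 11 genes of the machinery that matures and carries the enzymes, 7 were higher and 1, Sumf2, was lower, against 37% and 14.8% of all genes. With the libraries centred, 6 were higher and 2 lower, against 25.1% and 25%. Scarb2 (LIMP-2), a lysosomal membrane protein and enzyme receptor, was at 30.5 to 36.8 RPKM across knock-out libraries and 21.4 to 23.5 across wild-type ones (log2 fold change 0.58, SE 0.06). Igf2r, the large mannose 6-phosphate receptor, was at 8.75 to 11.0 against 7.02 to 7.81 RPKM (log2 fold change 0.43, SE 0.07). Neither gene's groups overlapped. Gnptab and Gnptg encode subunits of the enzyme that starts the mannose 6-phosphate tag. They were not called, at log2 fold changes of -0.10 and 0.08, and Gnptab was called lower with the libraries centred (-0.23, limma adjusted p = 0.020).

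Among 24 other lysosomal hydrolases and lumenal proteins tested, 13 were higher and 3 lower, against 37% and 14.8% of all genes, or 10 and 4 with the libraries centred, against 25.1% and 25%. Arsg, among the 13, passed the level filter through its knock-out values alone (0.747 against 0.311 RPKM). Their median log2 fold change was 0.24. Npc2, the cholesterol carrier, rose from 7.03 ± 0.524 (SD, n = 4) to 11.3 ± 0.428 RPKM (SD, n = 5). Ctsa, the protective protein of Glb1 and Neu1, rose from 12.6 ± 0.589 to 19.5 ± 1.22. Both were without overlap. Those called lower were the ribonuclease genes Rnaset2a and Rnaset2b, near-identical copies that share reads (log2 fold changes -0.57 and -0.46), and Creg1 (-0.22). Hpse and Smpdl3b did not reach the level filter.

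**Figure D3:**
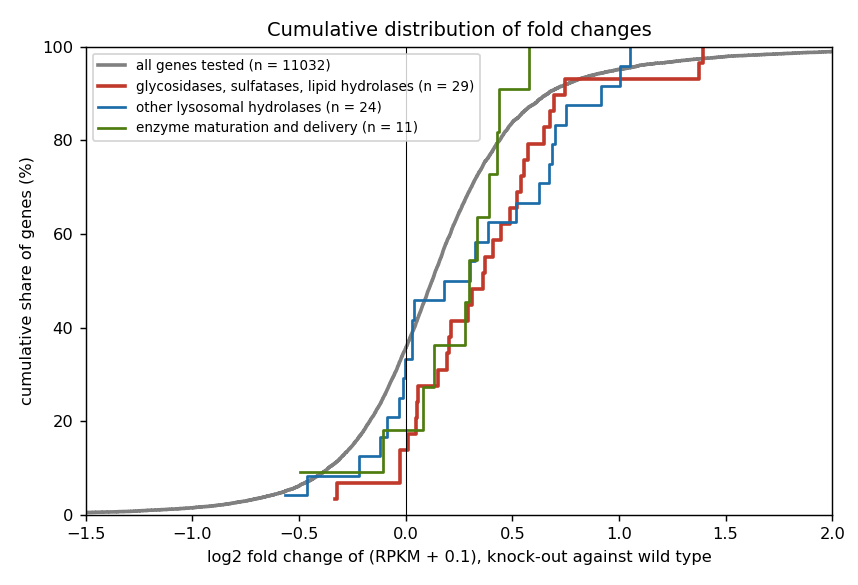
Cumulative share of genes, in percent, against log2 fold change for all 11032 genes tested, the 29 members, 24 other lysosomal hydrolases and 11 genes of enzyme maturation and delivery. The curve of the members lies to the right of that of all genes up to a log2 fold change of about 0.75, with medians of 0.36 and 0.12; it is a description without a test.

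Since partners act in 1 complex or on 1 substrate, 12 ratios of partner genes were formed within each library, where a library's overall scale cancels. Log2 ratios of (RPKM + 0.1) were compared by an exact two-sided permutation test, whose smallest p is 0.0079, with adjustment over the 12 pairs. Of the 11 ratios described here, 6 differed. Hexa and Gm2a act together on GM2. The Hexa to Gm2a ratio rose from 2.72 to 4.41 (log2 difference 0.70, SE 0.07, adjusted exact p = 0.019), so Hexa rose more than its activator, and all 5 knock-out ratios were above the 4 wild-type ratios.

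Ratios to Psap were formed for 4 enzymes that use saposins, and 3 of them were lower in the knock-out. These 3 share Psap, which rose (log2 fold change 0.65), while Gla (0.01), Arsa (0.05) and Galc (0.15) were not called. They are therefore not 3 separate results. Saposin B serves Arsa and Gla, saposin A serves Galc, and saposin D serves Asah1. Relative to Psap, Gla had a log2 difference of -0.64 (SE 0.11, adjusted exact p = 0.019), Galc of -0.50 (SE 0.06, adjusted exact p = 0.019) and Arsa of -0.60 (SE 0.15, adjusted exact p = 0.032), and the 5 knock-out ratios were below the 4 wild-type ratios in each. The Asah1 to Psap ratio did not pass (log2 difference -0.08, SE 0.11, adjusted exact p = 0.63), and its groups overlapped. Glb1, Neu1 and Ctsa form 1 complex, in which Ctsa protects the others. Neu1 fell relative to Ctsa (log2 difference -0.57, SE 0.11, adjusted exact p = 0.019), while the Glb1 to Ctsa ratio did not pass (-0.07, SE 0.13, adjusted exact p = 0.63). This last value depends on the pseudocount for the low gene Glb1: with a pseudocount of 1 the difference was -0.34 (adjusted exact p = 0.014).

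In the heparan sulfate chain the Sgsh to Naglu ratio rose from 0.748 to 1.17 (log2 difference 0.64, SE 0.17, adjusted exact p = 0.041), with overlap between the groups. The Ids to Idua ratio did not pass (0.23, SE 0.10, adjusted exact p = 0.11). Nor did Man2b1 to Manba (-0.09, SE 0.15) or Hyal1 to Hyal2 (-0.07, SE 0.28), and the low level of Hyal1 made the last imprecise.

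**Figure D4:**
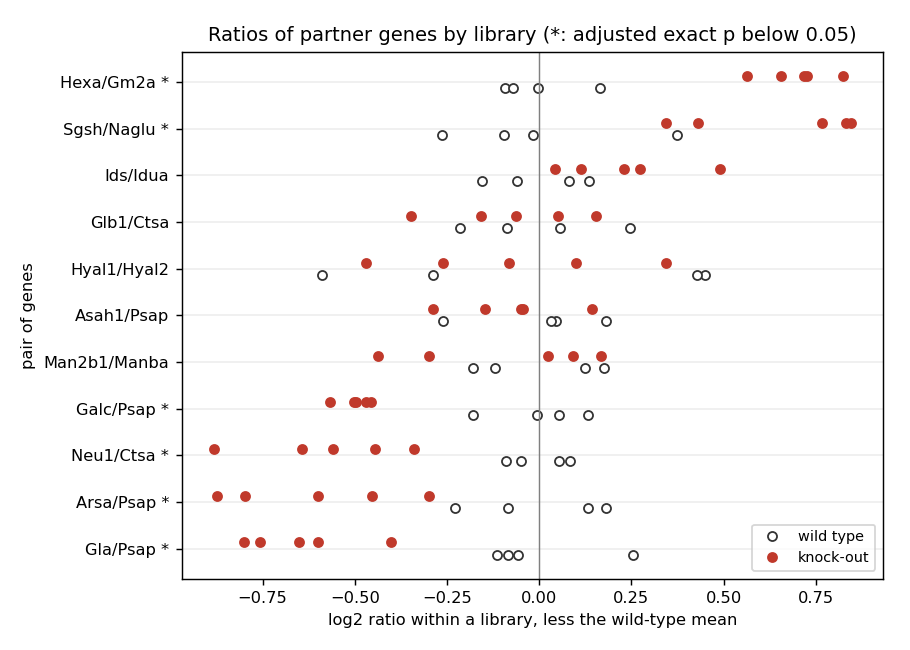
Log2 ratios of 11 gene pairs within each library, shown less the wild-type mean of the pair, with knock-out libraries as filled and wild-type libraries as open points and an asterisk at an adjusted exact p below 0.05. The Hexa to Gm2a ratio lies to the right in all 5 knock-out libraries, and those of Galc, Arsa and Gla to Psap and of Neu1 to Ctsa to the left.

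Macrophages are rich in lysosomal enzymes, and most of their tested marker genes were also higher in the knock-out. Of 20 macrophage markers 16 were tested and 14 rose, none fell, and none of the 20 was at 0 in any library. Of the 14, Emr1, Mpeg1 and Trem2 passed the level filter through their knock-out values alone, and 37% of all genes were called higher. Their summed RPKM was 87.2 to 148 across knock-out libraries and 36.2 to 48.8 across wild-type ones, led by Lyz2 (36.7 ± 10.6 against 14.4 ± 2.24 RPKM, SD, n = 5 and 4), C1qb and C1qa. Their part in the rise of the members was not tested, and in bulk tissue more cells of a type and more RNA per cell cannot be told apart.

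Other cell type markers differed as well. The counts below stand against 37% of all genes called higher and 14.8% lower, or 25.1% and 25% with the libraries centred. Of 6 fibroblast markers, 3 rose, with summed RPKM of 273 to 364 across knock-out libraries and 171 to 254 across wild-type ones. Of 8 endothelial markers, 5 fell (sums 24.5 to 43.7 against 34.7 to 56.8), or 7 with the libraries centred. Of 4 adipocyte markers, 2 fell (sums 141 to 206 against 161 to 229), or 4 with the libraries centred. The sums of 4 Schwann cell markers overlapped (9.81 to 28.6 against 10.8 to 33.5). Neutrophil markers were at or near 0, with sums of at most 1.93 RPKM, and so were the T cell markers apart from Cd3e. Cd3e was at 1.13 to 1.61 RPKM across knock-out libraries, at 0.0373 and 0.0551 in wt1 and wt2 and at 0.711 and 0.832 in wt3 and wt4, and it passed the filter through the knock-out alone. Of the 8 muscle markers, 2 rose and none fell, against 0 and 1 with the libraries centred. The part of these cell types in the results was not tested.

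Wild-type libraries differed among themselves in the members. In 17 of 29 members both wt3 and wt4 were above both wt1 and wt2, and in none below, where over all genes the shares were 39.6% and 16.1%. Ppt1 (5.85 and 5.86 against 7.24 and 7.72 RPKM) and Gusb (1.78 and 1.59 against 2.33 and 2.31) show the pattern. The deeper wild-type libraries were wt3 and wt4, at 63.9 and 47.2 reads per RPKM and kilobase against 36.8 and 37.5, and which columns hold which age is not known. The part of depth or age in this split was not tested. Without wt1 and wt2, 15 members were called higher and 1, Acp5, lower. Without wt3 and wt4 the counts were 19 and 0. Over all genes, too, fewer were called higher and more lower without wt1 and wt2 than without wt3 and wt4. The shift between these counts was thus not confined to the members.

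Since many lysosomal genes are TFEB targets, the promoters of the members were searched for the E-box core of the TFEB element. RefSeq promoters (build GRCm38.p6, 300 bases around each gene start) matched 26 of the 30 members by symbol, those other than Hgsnat, Galns, Asah1 and Aga. The core CACGTG, which reads the same on both strands, was present in 5 of the 26 members (Glb1, Naglu, Sgsh, Arsa and Gla), or 19.2%. Among the tested genes with an entry, 12.4% had it, against 8.09% of all 27025 genes listed. The longer form TCACGTGA, which contains the core and is also its own reverse complement, was present in 1 member, Gla, with 2 copies. That is 3.85% of the 26 members, against 2.42% of the tested genes with an entry. Among the 15 members called higher that had an entry, 2, or 13.3%, had the core and 0 had the longer form.

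Stretches upstream of the gene start are shown for the 5 promoters with a match, core in capitals, and for Hexa, the member with the smallest p, whose 300 bases have none. They are read 5′ to 3′ on the strand of the gene, and lie at chr9:114400990-114401075 (Glb1, plus strand), chr11:101069981-101070066 (Naglu, plus), chr11:119355511-119355579 (Sgsh, minus), chr15:89477425-89477480 (Arsa, minus), chrX:134601154-134601255 (Gla, minus) and chr9:59539440-59539539 (Hexa, plus).
Glb1: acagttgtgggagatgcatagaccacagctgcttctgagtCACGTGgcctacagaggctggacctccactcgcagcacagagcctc
Naglu: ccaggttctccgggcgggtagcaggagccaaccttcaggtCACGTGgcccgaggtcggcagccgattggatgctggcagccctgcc
Sgsh: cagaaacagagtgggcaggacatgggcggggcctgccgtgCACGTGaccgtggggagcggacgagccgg
Arsa: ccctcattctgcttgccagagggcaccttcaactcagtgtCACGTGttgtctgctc
Gla: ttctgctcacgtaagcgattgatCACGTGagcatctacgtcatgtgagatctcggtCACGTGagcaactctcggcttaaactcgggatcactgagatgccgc
Hexa: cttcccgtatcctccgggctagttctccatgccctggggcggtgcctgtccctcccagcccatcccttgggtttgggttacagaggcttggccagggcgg

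Genes with the core had both called and uncalled differences. Of the 5 genes with the core, Glb1 (log2 fold change 0.55) and Sgsh (0.31) were called higher, Gla (0.01) and Arsa (0.05) were not called, and Naglu had a log2 fold change of -0.33. The cores started 48 bases before the gene start in Glb1, 73 in Naglu, 29 in Sgsh and 16 in Arsa. A match of letters does not show binding, and a window without one says nothing about sites elsewhere.

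Strand was not given for the counting, so reads from exons that overlap another gene cannot be assigned with certainty. In the reference annotation 10 of the 30 members had exons that overlap exons of another gene, 8 of them on the opposite strand. For Sgsh the opposite gene is Card14, singled out after its values were seen, which was at 1.94 ± 0.209 RPKM (SD, n = 5) in the knock-out and 0.147 ± 0.0157 (SD, n = 4) in the wild type. How far its reads reached Sgsh was not tested. Other members with protein-coding partners on the opposite strand were Idua (Slc26a1 and Dgkq), Ppt1 (Cap1) and Acp2 (Ddb2), while Acp5, Arsa, Arsb and Galc overlap noncoding genes there. Glb1 shares exon sequence with Tmppe and Hyal1 with Hyal3 and Naa80 on the same strand.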

How the data were processed

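RNA was sequenced from white gastrocnemius of 5 Gaa knock-out and 4 wild-type mice. The authors deposited 1 table of RPKM values, whose 23665 lines are RefSeq transcripts and whose columns are libraries. Per the submitters' processing notes the build was mm9, and Partek 6.6, TopHat 1.3.2 and Bowtie 0.12.7.0 were the tools. The sources used here give neither their roles nor the strand setting or filters. RPKM was summed per gene symbol after 37 of 39 symbols changed by a spreadsheet were restored by accession. Depth was estimated from low values times transcript length (GENCODE M21, 22640 transcripts matched): 70.8% to 74.6% of values of up to 5 reads lay within 0.1 of a whole number. Such estimates cover counting error only.

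Genes with a mean of at least 0.5 RPKM (11032) entered limma 3.58.1 (R 4.3.3) as log2(RPKM + 0.1) (eBayes with trend, two-sided, Benjamini-Hochberg over all genes, threshold 0.05), a step checked on simulated data. Ratios were tested by exact permutation in Python 3.11.15. Per-library values are given for the 3 members of smallest p and the 1 of largest p in each role and the 4 of lowest level. Naglu, Acp5, Smpd1, Asah1, Card14, Man2b2, Ctbs, Fuca2, Arsg, Emr1, Mpeg1, Trem2 and Cd3e are described outside that rule, chosen after their values were seen. Other lysosomal genes are named by smallest p in each direction or as partners in a ratio. Further exceptions are Gnptab and Gnptg, and Hpse and Smpdl3b, which did not reach the level filter. Some items, 1 of the 12 ratios among them, are not reported here, but stayed in the fits, list counts and adjustment. The members and lists were chosen with earlier results of these data known. Alternatives were other pseudocounts, filters, scalings, the top transcript in place of the sum, and fewer libraries. Protein sequences were not analysed here.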

Additional observations from a re-analysis of the deposited data

Results flagged for a closer look

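In 84 groups of 4 or 5 values (each member, Gaa and each ratio, in each genotype), 3 had a sample set apart from the rest by Dixon's test, where chance gives about 1 in 20. Asah1 in ko4 (8.28 RPKM) was above the other knock-out libraries, Pla2g15 in ko1 (1.78 RPKM) was below them, and the log2 ratio of Gla to Psap in wt2 (-7.55) was above that of the other wild-type libraries. Without ko4 or ko1, Asah1 and Pla2g15 were still called higher.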

How the results depend on the processing

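In every setting run except a filter at 2 RPKM, which drops low members, 12 members were called higher: Hexa, Glb1, Gusb, Manba, Fuca1, Arsb, Asah1, Psap, Gm2a, Ppt1, Pla2g15 and Aga. The share of all genes called in every setting is not given here. Galns is missing from the 12 because it was not tested with the top transcript in place of the sum. It was called higher in every setting that tested it. No called member or Gaa changed sign in any setting run. Members called lower numbered 3 with the libraries centred, with quantile normalization and with the length trend removed, 1 without wt1 and wt2, and 0 to 1 when single libraries were left out. Over all genes, 2758 were called lower with centring and 3056 with quantile normalization, which called 2644 higher. In the delivery list 2 were called lower with centring and with quantile normalization. Leaving out ko2, ko3, ko5, wt1 or wt2 ended the calls of Acp2 and Sgsh, and leaving out ko4 or wt3 that of Sgsh.

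Ratios kept their direction where they had been called. Leaving out 1 knock-out library leaves 4 against 4, where the smallest adjusted exact p with 6 ratios at the limit is 0.057, so losses there say nothing about stability. The log2 differences over all single omissions ran from 0.67 to 0.75 for Hexa to Gm2a, -0.68 to -0.54 for Arsa to Psap, -0.56 to -0.45 for Galc to Psap, -0.70 to -0.56 for Gla to Psap, -0.63 to -0.50 for Neu1 to Ctsa and 0.56 to 0.77 for Sgsh to Naglu. Calls of Arsa to Psap also ended without wt3 or wt4, and of Sgsh to Naglu without wt1, wt2 or wt3. With a pseudocount of 1 the Glb1 to Ctsa ratio was called (-0.34). The causes were not tested. Low depth limits Hyal1, Galns and Glb1. No paired analysis was possible because the wild-type columns could not be matched to the replicate numbers in the labels.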
